A study of Mus musculus with 6 samples.

Results

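The 32 genes described here encode the folding machinery of the endoplasmic reticulum (ER) and the regulators that adjust it under stress, and they were taken from the deposited count table by symbol. Each of the 32 symbols was found on 1 of its 50600 rows, and 31 of the 32 had enough counts to be tested. The study measured RNA in resident macrophages of 2 tissues of chow-fed, untreated C57BL/6J males at 12 weeks of age. The islet group is made of cells from the pancreatic islets, and the fat group of cells from EpiWAT, the fat pad beside the epididymis. In both tissues the sort kept DAPI-negative (live) cells that stained for CD45, a leukocyte marker, and for F4/80 and CD64, which mark macrophages. There were 3 libraries per group, numbered 2, 4 and 6 in each, and the design text calls the tissues autologous, so a shared number was read as a shared animal. The labels do not say whether an islet library pools animals.

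Secretory and membrane proteins enter the ER through a translocation channel, fold there with chaperones and disulfide-forming enzymes, and are sent back to the cytosol for destruction if they fail. When unfolded protein builds up, the ER membrane sensors IRE1, PERK and ATF6 are activated. IRE1 splices the mRNA of the transcription factor XBP1, PERK phosphorylates the translation factor eIF2 and so favours translation of ATF4, and ATF6 is cut to release a transcription factor, which together raise chaperone, degradation and amino acid genes. Much of this control acts on splicing, translation or protein cleavage, which gene counts do not show.

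Total counts were 4089980 to 6923475 in the islet and 7450890 to 9235591 in the fat libraries, and levels are given as CPM, counts per 1000000 counts of a library whose total was scaled by the TMM method. Where 3 values follow each other they are those of libraries 2, 4 and 6, in that order. All 10 macrophage markers checked had counts in both tissues, with summed levels of 7442 to 12057 CPM in islet and 9363 to 12244 CPM in fat libraries, and 2 of them, Mertk and Lyz2, were lower in islet. A list of 18 cytosolic and mitochondrial heat shock genes took 11.4, 11.8 and 1.36% of all counts in islet libraries 2, 4 and 6 and 0.454 to 0.474% in fat. All 11 islet endocrine markers were detected in islet libraries and all 11 were called higher there, with sums of 9810.2, 6366 and 3631 CPM in islet libraries 2, 4 and 6 and 0 to 7.03 CPM in fat. Of 17 acinar markers, 15 had counts in islet libraries (Amy2a5 and Ptf1a were at 0) and 3 in fat, with sums of 6.65, 123 and 19.8 CPM in islet libraries 2, 4 and 6 and 1.80 to 3.18 CPM in fat. The 6 adipocyte markers were at 0 in every islet library and summed to 38.9 to 138 CPM in fat. Fibroblast or mesothelial markers summed to 0.605 to 5.12 CPM in islet and 87.8 to 384 CPM in fat, endothelial markers to 4.30 to 16.8 and 21.9 to 128 CPM, and B or plasma cell markers to 45.9 to 225 and 191 to 282 CPM. At 0 in every islet library were Jchain, Mzb1, Igkc and Cd79a of the B or plasma cell list, Col1a1, Dcn, Pdgfra, Lum and Upk3b of the fibroblast or mesothelial list, and Cldn5 of the endothelial list. Epithelial markers summed to 33.8 to 95.3 CPM in islet and 2.12 to 2.84 CPM in fat (Krt19 and Cftr were at 0 in islet), T or NK cell markers to at most 7.41 CPM, granulocyte markers to at most 2.26 CPM and dendritic cell markers to 12.3 to 20.4 and 25.1 to 33.8 CPM. Bulk counts do not separate the number of cells of a type from the RNA in each cell. The part of the endocrine or heat shock RNA in the differences below was not tested.

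**Figure D1:**
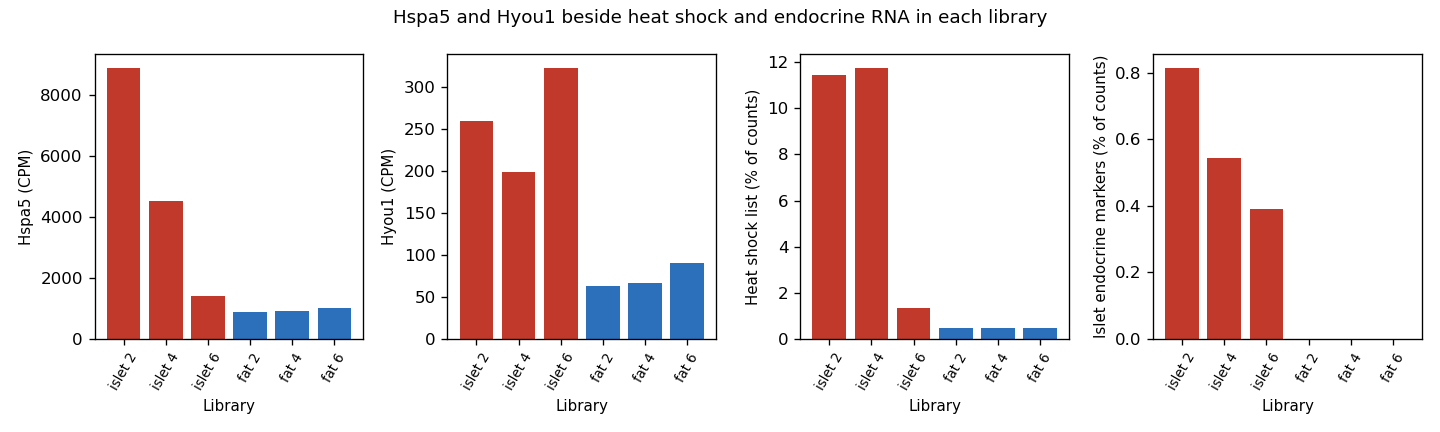
Levels in each of the 6 libraries (red islet, blue fat), 1 bar per library, of Hspa5 and Hyou1 in CPM and of the heat shock list and the islet endocrine markers as percent of all counts. Hspa5 stood at 8897, 4512 and 1393 CPM in the islet libraries, ordered as the sum of the endocrine markers was, while Hyou1 was highest in islet library 6. Not every single endocrine marker had this order. A link between these orders was not tested.

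ER chaperones with their partners (6 of 9 genes tested) and the calnexin cycle (2 of 3) made up 8 of the 10 genes that rose in islet macrophages. Of the 6 sensors and transcription factors, 0 passed the test. The roles were assigned with earlier results of these data known, and the difference between these groups was not tested. Of the 31 genes tested, 10 rose, 0 fell and 21 did not pass at an adjusted p under 0.05 (edgeR's quasi-likelihood test; at an unadjusted p under 0.05, 14 were higher and 1 lower, and DESeq2 called 13 higher and 1 lower). Over all 12152 genes tested, 19.4% were called by edgeR at the adjusted threshold, 8.97% higher and 10.5% lower in islet, against 32.3% and 0% of the set. At an unadjusted p under 0.05 there were 3953 of the 12152 genes, both directions together. The share of all genes that DESeq2 called is not given here, so its counts have no background beside them. The 10 that rose were Hspa5, Hyou1, Creld2, Calr, Manf, Dnajb11, Pdia3, Edem1, Hsp90b1 and Pdia6. The median log2 difference was 0.57 in the set and 0.0061 over all genes tested, and 25 of 31 differences were above 0. In 14 of the 31 genes every islet library lay above every fat library and in 1, Atf4, below, where 40.6% of all genes tested did not overlap, 18.2% above and 22.3% below. The 10 genes that rose were all among those 14 that lay above. Their 30 differences between libraries of the same number could therefore only be above 0. On the log2 scale they ran from 0.46 (Hspa5, number 6) to 3.36 (Hspa5, number 2). The count that rose was 7 when the replicate numbers entered as a block and 4 without islet replicate 2. It was 1, 1 and 2 without fat replicates 2, 4 and 6. In each of these fits 10 of 10 estimates were above 0, which the lack of overlap made likely beforehand. Counts over all genes also differed between fits and are given in the last section. The counts of the set alone, also those of DESeq2, do not separate a change in this set from one over all genes.

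**Figure D2:**
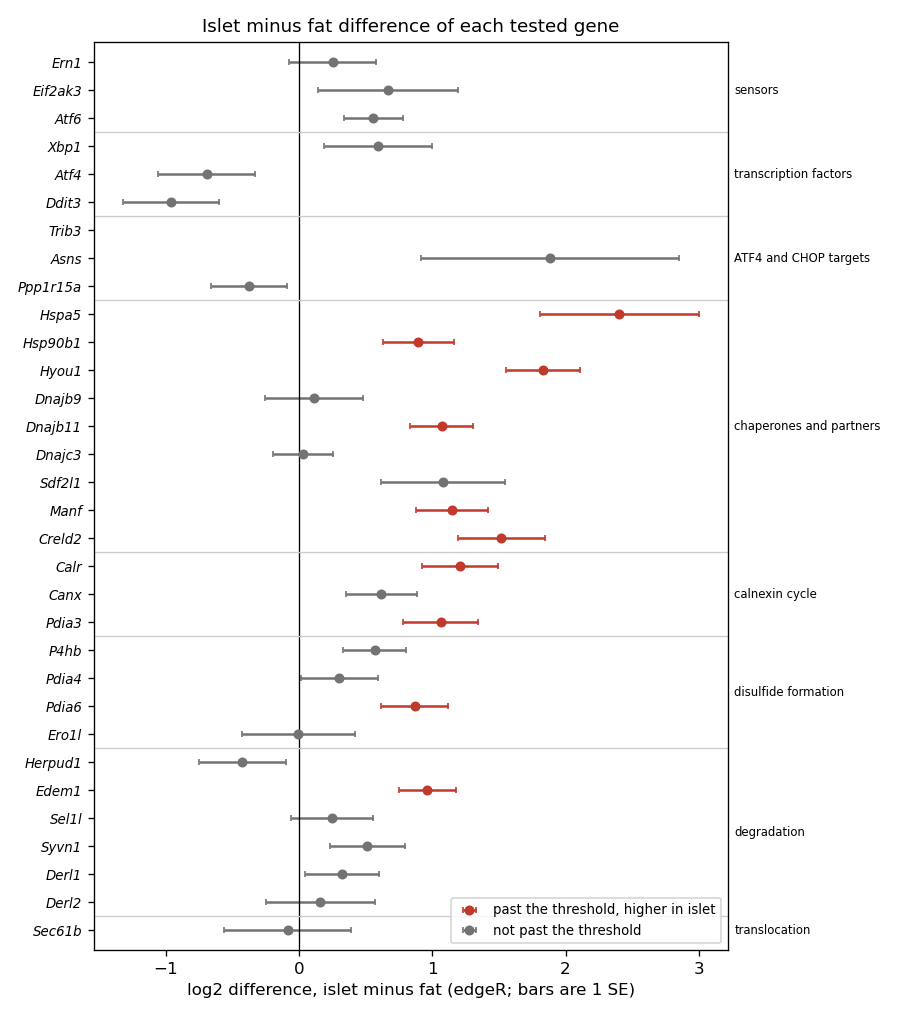
Islet minus fat difference of each tested gene on the log2 scale (x axis, bars 1 SE), grouped by role, in red where the adjusted p was under 0.05; Trib3 has no point because it was not tested. The 10 red points run from 0.87 (Pdia6) to 2.40 (Hspa5). Of them, 8 lie among chaperones and the calnexin cycle, which hold 9 and 3 of the tested genes.

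The sequences in front of several of these genes carry the element through which ATF6 and XBP1 are known to act, and the promoters of those that rose are shown so that it can be read in place. RefSeq promoter windows (GRCm38.p6, 250 bases before to 50 after the start site) were found for 28 of the 32 genes; Atf6, Hyou1, Manf and Derl1 were not among them. The ER stress element was searched on both strands as CCAAT, any 9 bases, then CCACG. It was found in the windows of 8 of 28 genes, which were Hspa5, Hsp90b1, Dnajc3, Creld2, Calr, Canx, Pdia6 and Syvn1, and in 0.119% of all 32851 windows. Counted by gene, 0.137% of the 27025 genes with windows held it. The set was chosen as ER folding and stress genes, and the element as one known to act on such genes. A share above that of all windows was therefore likely beforehand, also for the second form below, and is no result of these libraries. By call, 5 of the 8 matched genes that rose held it, against 3 of the 20 others, a split that was not tested. For the 5 that rose, the bases of the window that lie before both the RefSeq start and the GENCODE M21 gene are printed 5′ to 3′ on the strand of the gene (for Hspa5, whose GENCODE gene begins inside the window and takes in the match, the match alone), with the letters of the element in capitals (it reads CGTGG, 9 bases, ATTGG where it lies on the opposite strand):
Hspa5, chr2:34772025-34772043, plus strand: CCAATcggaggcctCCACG
Hsp90b1, chr10:86705510-86705694, minus strand: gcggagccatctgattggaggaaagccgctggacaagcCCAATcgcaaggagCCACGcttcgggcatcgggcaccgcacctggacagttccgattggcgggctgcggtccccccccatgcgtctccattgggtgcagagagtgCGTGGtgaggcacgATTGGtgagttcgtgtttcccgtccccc
Creld2, chr15:88819396-88819645, plus strand: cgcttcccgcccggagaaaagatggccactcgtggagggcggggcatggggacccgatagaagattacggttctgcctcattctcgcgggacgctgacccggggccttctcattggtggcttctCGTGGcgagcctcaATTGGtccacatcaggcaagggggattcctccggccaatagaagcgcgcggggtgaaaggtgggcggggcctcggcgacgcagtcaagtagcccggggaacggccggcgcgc
Calr, chr8:84846935-84847181, minus strand: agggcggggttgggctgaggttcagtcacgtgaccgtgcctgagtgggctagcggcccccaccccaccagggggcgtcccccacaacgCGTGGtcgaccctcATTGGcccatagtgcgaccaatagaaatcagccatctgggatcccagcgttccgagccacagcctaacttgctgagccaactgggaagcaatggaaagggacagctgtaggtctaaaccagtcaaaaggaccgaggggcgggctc
Pdia6, chr12:17266339-17266544, plus strand: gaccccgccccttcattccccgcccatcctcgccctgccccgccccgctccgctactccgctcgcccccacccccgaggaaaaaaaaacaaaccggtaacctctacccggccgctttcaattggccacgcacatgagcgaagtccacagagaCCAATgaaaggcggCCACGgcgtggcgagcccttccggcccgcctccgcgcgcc

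The Hsp90b1 window held the element at 2 places, 1 on each strand. In the 3 genes that held the element and did not pass the test, the matches were these:
Dnajc3, chr14:118937827-118937845, plus strand: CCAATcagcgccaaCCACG
Canx, chr11:50325800-50325818, minus strand: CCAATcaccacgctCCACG
Syvn1, chr19:6046532-6046550, plus strand: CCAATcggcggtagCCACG

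A second form of the element, ATTGG, any 1 base, then CCACG, was found in 2 of 28 genes and 0.0365% of all windows (0.0444% of all genes with windows). The genes were Dnajb11, which rose and where it lies just after the start site, and Herpud1, which did not pass:
Dnajb11, chr16:22857852-22857862, plus strand: ATTGGcCCACG
Herpud1, chr8:94386377-94386387, plus strand: ATTGGgCCACG

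The core of the element bound by ATF4 with C/EBP factors, TGATGNAA, was found in Trib3, Asns and Herpud1 and in 3.97% of all windows (4.51% of genes). In Asns the match on the strand of the gene was TGATGaAA, from 23 to 16 bases before the RefSeq start. It lies inside the GENCODE gene, which begins earlier. The XBP1 element core TGACGTGG was in 0 of 28 genes and 0.676% of all windows (0.714% of genes). A match describes letters only, and no binding was measured.

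The sensors and their transcription factors did not pass the test, and 0 of these 6 genes rose or fell (at an unadjusted p under 0.05 Atf6 was higher and Ddit3 lower, the 2 genes of the 6 that DESeq2 also called). Atf6, whose product is cut on stress to give a transcription factor, stood at 220.1, 233 and 209 CPM in islet and 143, 142 and 164 CPM in fat. Every islet library lay above every fat library, but the log2 difference of 0.56 ± 0.22 (SE) had an adjusted p = 0.110. Eif2ak3, which encodes PERK, stood at 116, 67.4 and 19.5 CPM in islet and 40.8, 37.8 and 48.5 CPM in fat. Islet libraries 2 and 4 lay above the fat range and islet library 6 below it, and its log2 difference of 0.67 ± 0.52 (SE, adjusted p = 0.427) was 0.02 without islet replicate 2. Ern1, which encodes IRE1, had the opposite order, with 55.8, 64.8 and 125 CPM in islet and 78.7, 65.0 and 62.6 CPM in fat, with islet library 6 above the fat range, library 4 inside it and library 2 below it.

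Xbp1, the factor made active by IRE1, stood at 287, 80.0 and 172 CPM in islet and 109, 126 and 123 CPM in fat, so that islet library 4 lay below the fat range and libraries 2 and 6 above it (log2 0.59 ± 0.41, SE, adjusted p = 0.364). Without islet replicate 4 it was called higher (log2 0.94, adjusted p = 0.0445). The counts do not separate its spliced and unspliced forms. Atf4, the factor of the PERK branch, stood at 226, 96.0 and 267 CPM in islet and 311, 334 and 307 CPM in fat, below the fat range in all 3 islet libraries. Its log2 difference of -0.69 ± 0.36 had an adjusted p = 0.229. Ddit3, which encodes CHOP, the factor linked to cell death under lasting stress, stood at 51.0, 22.4 and 30.3 CPM in islet and 80.2, 75.9 and 46.2 CPM in fat (log2 -0.96 ± 0.36, adjusted p = 0.0987). Islet library 2 overlapped fat library 6, and the other islet libraries lay below the fat range. DESeq2, a fit without a filter and the fit without islet replicate 2 called Ddit3 lower (adjusted p = 0.0490, 0.0209 and 0.0419), and the exons of Ddit3 overlap those of other annotated genes, over 6.13% of their length on the same and 4.73% on the opposite strand.

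The 3 genes that ATF4 and CHOP are known to switch on differed in level and sign, and 0 of the 2 tested passed (0 at an unadjusted p under 0.05 in edgeR, and 0 in DESeq2 and limma voom by adjusted p). Ppp1r15a, whose product helps remove the phosphate from eIF2 and so ends the translation block, stood at 358, 237 and 197 CPM in islet and 319, 322 and 385 CPM in fat, with islet libraries 4 and 6 below the fat range. Asns, asparagine synthetase, was close to the detection limit at 2.02, 5.16 and 3.77 CPM in islet and 1.70, 1.06 and 0.118 CPM in fat, that is 10, 18 and 28 against 18, 8 and 1 counts (log2 1.89 ± 0.97, adjusted p = 0.218). The Asns libraries did not overlap, and its log2 difference was 2.58 (adjusted p = 0.302) without fat replicate 2. Trib3, a pseudokinase that feeds back on ATF4, had 28, 4 and 10 counts in islet and 3, 3 and 4 in fat libraries and was too low to test.

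Chaperones and their partners held 6 of the 10 genes that rose, with 0 of 9 lower and 3 not past. Hspa5 encodes BiP, the main ER chaperone, which also keeps the sensors inactive in unstressed cells. Hspa5 (ENSMUSG00000026864.13, GRCm38 chromosome 2, 34771970 to 34777547) stood at 8897, 4512 and 1393 CPM in islet and 867, 912 and 1016 CPM in fat. The islet libraries spanned a wide range, with library 6 just above the highest fat library. The fitted difference was 5.29-fold (log2 2.40 ± 0.60, SE, adjusted p = 0.0232). Without islet replicate 2 it was 3.15-fold (adjusted p = 0.0721), and islet library 6 alone against fat gave a log2 difference of 0.50 (adjusted p = 0.121). BiP transcripts made up 49.1, 38.3 and 14.2% of all counts of the 32 genes in islet libraries 2, 4 and 6 and 14.5 to 15.3% in fat. With Hspa5 left out, the other 31 genes summed to 9234, 7274 and 8404 CPM in islet and 4841, 5375 and 5627 CPM in fat, again with no overlap. Such a sum is weighted to its most abundant genes, Calr, Hsp90b1, Pdia3 and Canx, which each lacked overlap on their own. It does not describe every gene, since 16 of the 31 tested genes overlapped between the tissues.

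Hyou1, a large HSP70-type protein that helps BiP exchange its nucleotide (ENSMUSG00000032115.14, chromosome 9, 44379490 to 44392369), stood at 259.8, 199 and 323 CPM in islet and 63.0, 66.6 and 90.1 CPM in fat, 3.56-fold higher (log2 1.83 ± 0.28, SE, adjusted p = 0.00263). Its islet values were tighter than those of Hspa5 and highest in library 6. Creld2, a secreted stress-induced protein whose promoter is among those printed, stood at 58.3, 44.7 and 83.3 CPM in islet and 16.0, 21.6 and 27.5 CPM in fat (2.87-fold, adjusted p = 0.0125). Manf, a small ER protein that binds BiP and can be secreted, stood at 199, 108 and 162 CPM in islet and 66.8, 75.6 and 69.6 CPM in fat (2.21-fold, adjusted p = 0.0184), and 8.85% of its exonic length overlaps genes on the opposite strand. Dnajb11, a co-chaperone that hands substrates to BiP, stood at 148, 105 and 154 CPM in islet and 60.2, 65.1 and 68.2 CPM in fat (2.10-fold, adjusted p = 0.0141). All 4 of these genes had every islet library above every fat library.

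Hsp90b1, the HSP90 of the ER lumen, which folds Toll-like receptors and integrins, stood at 1245, 954 and 1077 CPM in islet and 544, 541 and 675 CPM in fat (1.86-fold, log2 0.90 ± 0.27, SE, adjusted p = 0.0470). Its fit lay close to the threshold, with an adjusted p = 0.0959 under the replicate block, 0.0534 with RLE size factors, 0.0545 without mitochondrial genome and ribosomal RNA genes and 0.0974 with no filter. Other annotated genes overlap 5.38% of its exonic length on the same and 10.3% on the opposite strand. Of the 6 chaperone genes that rose, Hyou1 passed whichever library was left out. Without islet replicate 2, Hspa5, Hsp90b1 and Manf missed the threshold (adjusted p = 0.0721, 0.128 and 0.0600), all 6 but Hyou1 did so without fat replicate 2 or 4 (0.0729 to 0.225), and all but Hyou1 and Creld2 without fat replicate 6 (0.0651 to 0.114).

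The 3 chaperone partners that did not pass were Sdf2l1, Dnajb9 and Dnajc3. Sdf2l1, part of a BiP complex that keeps misfolded protein soluble, stood at 70.3, 94.3 and 25.5 CPM in islet and 20.0, 38.2 and 31.5 CPM in fat, with islet libraries 2 and 4 above the fat range and library 6 inside it. The difference of 1.08 ± 0.46 (log2, SE, adjusted p = 0.145) passed without islet replicate 6 (log2 1.45, adjusted p = 0.00618) and in the fit with no filter (log2 1.03, adjusted p = 0.0205), and was -0.31 with islet library 6 alone. Dnajb9, a co-chaperone that brings BiP to IRE1 and represses it, stood at 156, 109 and 53.5 CPM in islet and 92.2, 114 and 87.5 CPM in fat, on both sides of the fat range. Dnajc3, which holds PERK and related kinases in check, stood at 183, 158 and 162 CPM in islet and 183, 167 and 142 CPM in fat (log2 0.03 ± 0.22, SE); its promoter holds the ER stress element.

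**Figure D3:**
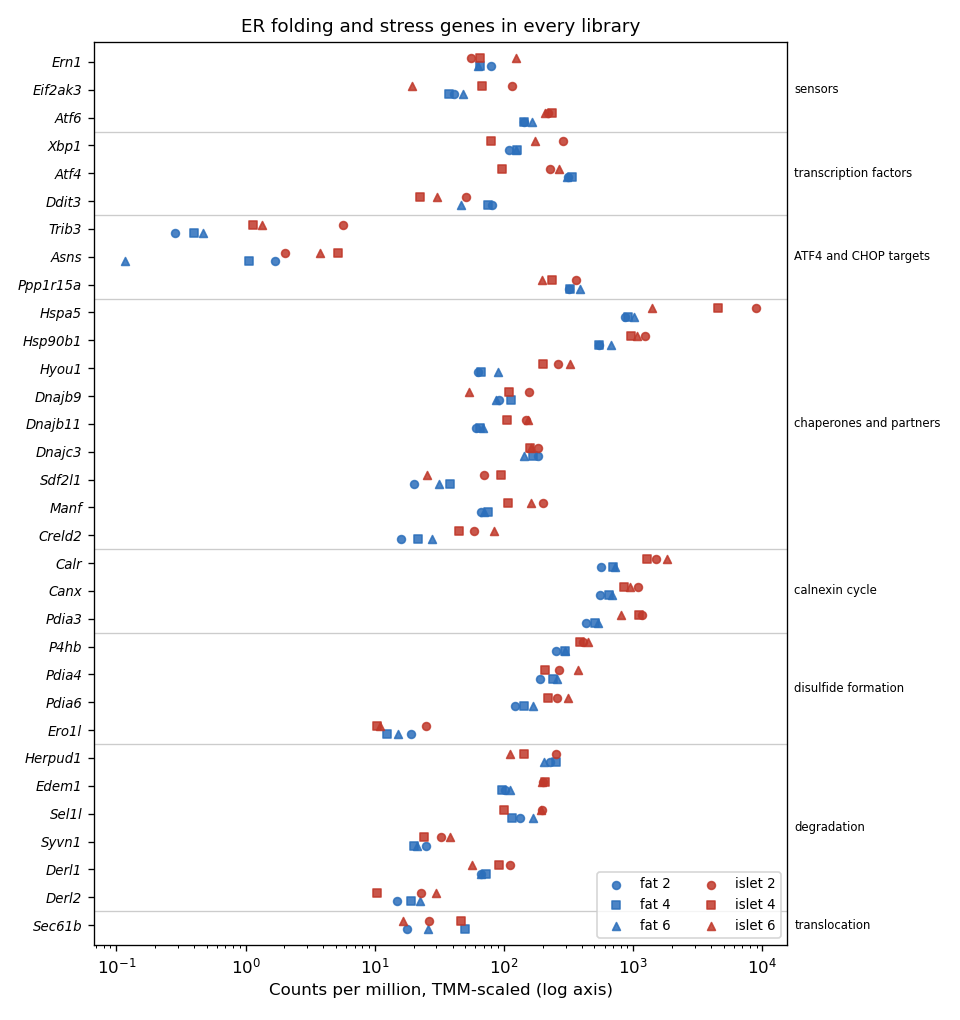
TMM-scaled CPM of all 32 genes in every library (log axis), grouped by role, with islet in red, fat in blue and the marker shape giving the library number. The fat points lie close together for most genes, while the islet points of Hspa5 spread from 1393 to 8897 CPM.

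In the calnexin cycle, which holds sugar-bearing proteins until they are folded, 2 of 3 genes rose. Calr, the soluble lectin calreticulin (ENSMUSG00000003814.8, chromosome 8, 84841850 to 84846934), stood at 1513, 1276 and 1814 CPM in islet and 565, 703 and 726 CPM in fat (2.31-fold, log2 1.21 ± 0.29, SE, adjusted p = 0.0185). Pdia3, the disulfide isomerase that works with both lectins and also in MHC class I loading, stood at 1177, 1116 and 798 CPM in islet and 433, 508 and 537 CPM in fat (2.09-fold, adjusted p = 0.0284, and 0.0643 under the replicate block). Canx, the membrane-bound partner lectin, stood at 1098, 852 and 945 CPM in islet and 549, 651 and 685 CPM in fat. Its libraries did not overlap either, but it did not pass in edgeR (log2 0.62 ± 0.26, adjusted p = 0.141) and did in DESeq2 (adjusted p = 0.0318). Calr and Pdia3 missed the threshold without islet replicate 2 (adjusted p = 0.0533 and 0.0861) or without any 1 fat library (0.0772 to 0.162), and Pdia3 also with islet library 6 alone (0.0556).

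Of 4 genes of disulfide formation, 1 rose. Pdia6, an isomerase that also acts on the IRE1 sensor, stood at 256, 220.5 and 311 CPM in islet and 122, 142 and 167 CPM in fat (1.83-fold, log2 0.87 ± 0.25, SE, adjusted p = 0.0404). Every islet library lay above every fat library, but the adjusted p was 0.0578 under the replicate block, 0.0726 with no filter, 0.0854 without islet replicate 2 and 0.0956 to 0.212 without 1 fat library. P4hb, the classic protein disulfide isomerase, stood at 412, 389 and 449 CPM in islet and 252, 298 and 294 CPM in fat without overlap (log2 0.57 ± 0.23, adjusted p = 0.128, and 0.0347 in DESeq2). Pdia4, a related isomerase, ranged from 207 to 372 CPM in islet and 189 to 256 CPM in fat. Ero1l, the oxidase that recharges these isomerases, ranged from 10.3 to 25.0 CPM in islet and 12.3 to 18.9 CPM in fat and did not pass (adjusted p = 0.997).

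ER-associated degradation, which extracts failed proteins, gave 1 of 6 higher, 0 lower and 5 not past. Edem1, which recognises trimmed sugars on terminally misfolded glycoproteins, stood at 202, 207 and 195 CPM in islet and 102, 96.1 and 112 CPM in fat (1.95-fold, log2 0.96 ± 0.21, SE, adjusted p = 0.0141). It had the smallest spread between islet libraries of the 10 genes that rose, with a coefficient of variation of 2.96%. Edem1 missed the threshold only when a fat library was left out (adjusted p = 0.0941, 0.114 and 0.0635 without fat replicates 2, 4 and 6). Herpud1, a stress-induced scaffold of the same machinery, stood at 254, 144 and 111 CPM in islet and 228, 251 and 204 CPM in fat, with islet libraries 4 and 6 below the fat range and library 2 above it (log2 -0.42 ± 0.33, adjusted p = 0.419). The ubiquitin ligase gene Syvn1 and its partner Sel1l ranged over 24.1 to 38.0 and 101 to 198 CPM in islet and 20.3 to 24.8 and 116 to 166 CPM in fat. Derl1 and Derl2, channel-forming membrane proteins, ranged over 56.6 to 110.5 and 10.3 to 29.6 CPM in islet and 66.6 to 73.0 and 14.8 to 22.5 CPM in fat, and these 4 genes overlapped between tissues. Sec61b, a small subunit of the translocation channel, overlapped as well, at 26.2, 46.2 and 16.4 CPM in islet and 17.9, 49.8 and 26.0 CPM in fat.

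Per kilobase of exon, the order of levels was much alike in both tissues at the top. In fat it was led by Calr, Hspa5 and Pdia3 at 231, 220.4 and 157 CPM per kilobase (means of 3 libraries), and in islet by Hspa5, Calr and Pdia3 at 1167, 533 and 328. The per-kilobase values of Calr and Hspa5 overlapped between libraries in both tissues, and their order was not tested. In islet, Hspa5 led in libraries 2 and 4. In library 6 Calr was above it, at 1814 against 1393 CPM over a shorter exonic length (2880 against 4229 bases). By this level Hyou1 ranked 25 of 32 in fat and 18 in islet, Creld2 24 and 14, and Ddit3 11 and 24. Asns and Trib3 ranked last in both.

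Most genes varied more between islet than between fat libraries. The median coefficient of variation over the 31 tested genes was 31.7% in islet and 12.6% in fat, and it was larger in islet for 25 of 31 genes, near the 80.0% of all genes tested. The genes were ordered differently over the islet libraries. Hspa5, Pdia3, Eif2ak3, Ppp1r15a, Dnajb9, Herpud1 and Derl1 were highest in library 2 and lowest in library 6, as the endocrine sums were, and Sdf2l1 was high in libraries 2 and 4, the 2 with the most heat shock RNA. Hyou1, Creld2, Calr, Dnajb11 and Pdia6 were highest in library 6, which had the least of both. Of the 10 genes that rose, 7 were lowest in islet library 4, where acinar marker RNA was highest and the total count lowest (4089980). Orders over only 3 libraries match easily. Whether these orders are linked to endocrine, heat shock or acinar RNA or to the total count was not tested.

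**Figure D4:**
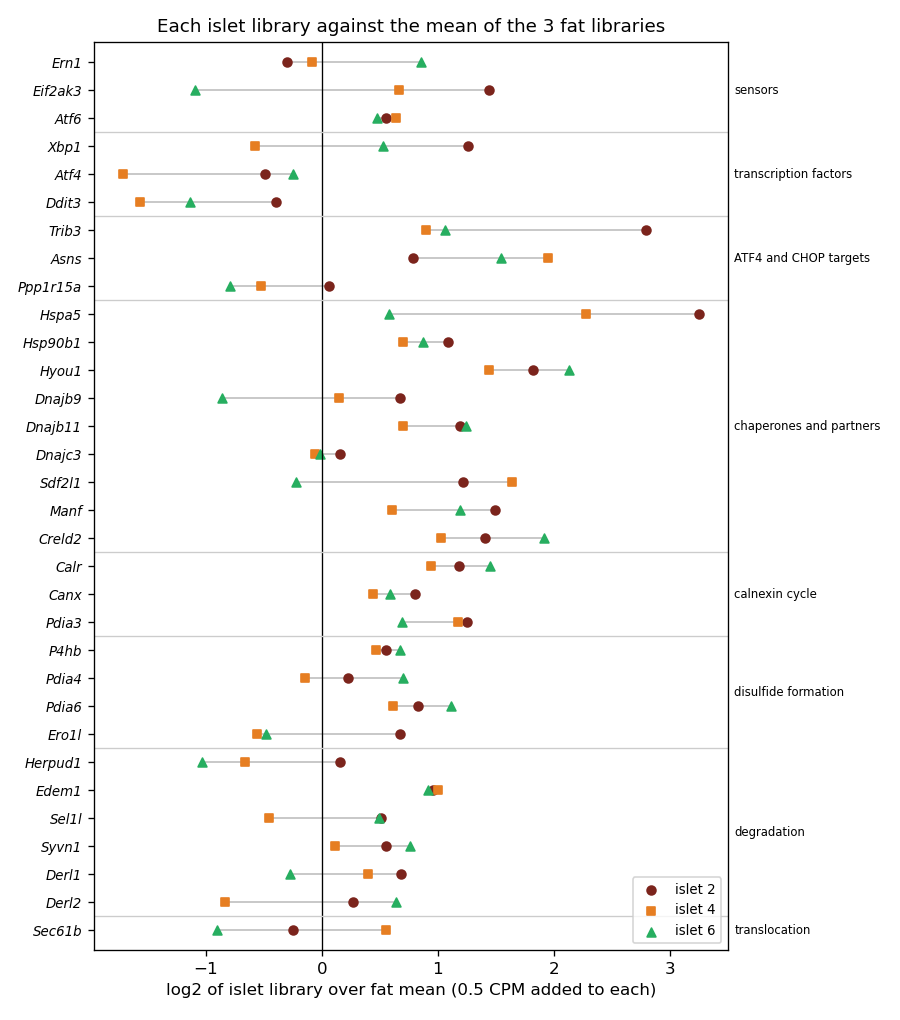
Each islet library's level of the 32 genes as log2 over the mean of the 3 fat libraries (0.5 CPM added to both), with marker and colour giving the library and a line spanning the 3. Hyou1, Creld2, Calr and Edem1 sit to the right of 0 in all 3 libraries, while Eif2ak3 runs from -1.10 in library 6 to 1.44 in library 2.

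With islet libraries 2 and 4 both left out, library 6 alone stood for islet and was assumed to vary like the fat libraries. Trib3 also had enough counts to enter that fit. It rests on 1 islet library, so only log2 differences are given here. The 10 genes that rose with all libraries ran from 0.50 (Hspa5) to 2.06 (Hyou1), and Ern1 was at 0.78. Furthest below 0 were Ddit3, Eif2ak3, Herpud1, Sec61b, Dnajb9 and Ppp1r15a, at -1.23, -1.20, -1.11, -0.99, -0.95 and -0.87. Without islet replicate 6 instead, Eif2ak3, Atf6 and Sdf2l1 were called higher beside the same 10 (log2 differences of 1.11, 0.59 and 1.45, adjusted p = 0.0143, 0.0494 and 0.00618). The Eif2ak3 difference changed sign with the islet libraries used.

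The wider pathway was read from 150 other ER genes in 5 lists. Of 137 tested table rows, 16 rose (11.7%), 4 fell (2.92%) and 117 did not pass, with a median log2 difference of 0.26. Over all genes tested 8.97% were called higher and 10.5% lower, so the share of these genes that rose was near the background, and the counts of single lists below stand against the same shares. Other folding genes gave 2 higher of 38, the thioredoxin-like Tmx4 and the second ER oxidase gene Ero1lb. Tmx4 stood at 89.9, 101 and 66.0 CPM in islet and 26.2, 26.3 and 23.5 CPM in fat (3.38-fold, adjusted p = 0.00199), and Ero1lb at 93.7, 53.0 and 36.0 and 17.6, 23.5 and 19.3 CPM (3.03-fold, adjusted p = 0.0171). Other degradation genes gave 5 higher of 22. Ube2j1, a ubiquitin-conjugating enzyme of the ER membrane, was 3.05-fold higher, at 231, 133 and 169 CPM in islet and 49.9, 58.5 and 66.2 CPM in fat (adjusted p = 0.00428). Ubxn4, which recruits the extracting ATPase, was 3.58-fold higher (adjusted p = 0.00717), and the others were Edem2, Ube2j2 and Man1b1, named after their values were seen. Translocation and glycosylation genes gave 1 higher of 33, Srp68 of the signal recognition particle (1.95-fold, adjusted p = 0.0208).

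Other sensing and signalling genes split, with 2 higher and 2 lower of 13. Rtcb, the ligase that joins the cut ends of Xbp1 mRNA, stood at 451, 552 and 146 CPM in islet and 45.5, 54.9 and 59.9 CPM in fat (7.16-fold, adjusted p = 0.00378), and the log2 difference of 2.84 ± 0.47 (SE) was 1.37 with islet library 6 alone. Traf2, an adaptor of IRE1, rose 2.33-fold (adjusted p = 0.0443). Creb3l2, an ATF6-related factor, and Wfs1, an ER membrane protein of calcium balance, fell by 1.14 and 1.36 on the log2 scale (adjusted p = 0.0281 and 0.0411). Other ATF4 and integrated stress response genes gave 6 higher and 2 lower of 31. Mthfd2, a mitochondrial folate enzyme, stood at 23.6, 31.0 and 50.8 CPM in islet and 4.07, 5.31 and 5.88 CPM in fat (6.92-fold, adjusted p = 0.00173), and Nars, asparaginyl-tRNA synthetase, was 2.43-fold higher (adjusted p = 0.0104). Gpt2, a mitochondrial alanine aminotransferase, stood at 4.84, 7.17 and 5.39 CPM in islet and 73.1, 73.0 and 64.5 CPM in fat, 12.2-fold lower (adjusted p = 1.14e-04), and Nupr1, a stress-induced chromatin protein, was 8.09-fold lower (adjusted p = 0.00310). The Nupr1 difference was -3.02 on the log2 scale, -3.75 without islet replicate 6 and -2.33 with islet library 6 alone. Mthfd2, Gpt2, Nupr1, Rtcb, Tmx4 and Ube2j1 passed in all 16 alternative fits. Without fat replicates 2, 4 and 6 the 5 lists gave 4, 6 and 5 higher and 2 lower each time, without islet replicates 2 and 4 they gave 10 and 26 higher, and islet library 6 alone gave 34 higher and 22 lower. Traf2, Wfs1, Creb3l2, Srp68 and Ero1lb missed the threshold without any 1 fat library (0.0665 to 0.176), Nars likewise (0.0538 to 0.0760), and Ubxn4 without fat replicate 2 (0.0509). Without islet replicate 2, Traf2, Creb3l2, Wfs1 and Srp68 had adjusted p = 0.0609, 0.0704, 0.104 and 0.0577, without islet replicate 4 Wfs1 had 0.0613, and without islet replicate 6 Traf2 had 0.0796. With islet library 6 alone, Wfs1 and Ero1lb had 0.0628 and 0.0512 (Ero1lb at a log2 difference of 0.76, or 1.70-fold), and under the replicate block Traf2 had 0.0777.

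Of the 18 cytosolic and mitochondrial heat shock genes, 15 rose and 0 fell, and their median log2 difference was 3.53, beside 0.57 for the 31 tested of the 32 ER genes. That median was 2.58 without islet replicate 2 and 1.69 with islet library 6 alone, beside 0.49 and 0.54 for the ER genes. Hsph1, a partner of cytosolic HSP70, stood at 13822, 4974 and 749.8 CPM in islet and 33.4, 37.9 and 32.6 CPM in fat (log2 7.55 ± 1.05, SE, adjusted p = 0.00170). Its log2 difference was 6.36 without islet replicate 2, 6.79 in limma voom, 6.80 under the replicate block and 4.36 with islet library 6 alone. Hspa1b, an inducible cytosolic HSP70, stood at 32628, 50147 and 1406 CPM in islet and 24.2, 49.8 and 20.2 CPM in fat (log2 9.80 ± 1.38, SE, adjusted p = 0.00186), and it may share reads with its near-identical copy Hspa1a, so its own value is uncertain. Its log2 difference was 9.09 without islet replicate 4, 8.91 in limma voom, 9.02 under the replicate block and 5.42 with islet library 6 alone. Hsph1 was highest in islet library 2 and Hspa1b in library 4, and both were lowest of the islet libraries in library 6, as Hspa5 was. With the whole heat shock list left out of the fit, the same 10 ER genes passed. Each gene is fitted on its own counts, so leaving out other genes changes little (Hspa5 log2 2.40 with and 2.41 without the list). It does not take a heat shock response out of the libraries. Whether the ER differences depend on heat shock was not tested. The number of heat shock genes called higher was 10, 11 and 11 without fat replicates 2, 4 and 6, 12 without islet replicate 2 and 13 with islet library 6 alone.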

How the data were processed

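Libraries were made from 10 ng of total RNA with a stranded low-input kit, per the labels. The authors deposited 1 table, which holds unnormalised counts of reads per gene in 6 libraries. The submitters' processing notes name STAR, featureCounts, Subread 1.6.4 and GRCm38, and no source used here gives the annotation or whether strand was used in counting. For that reason, reads of genes that overlap on opposite strands may not be separable.

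Gene identifiers were matched without version to GENCODE M21 (GRCm38; 99.56% of 50600) for coordinates, exon overlaps and exonic lengths. In edgeR 4.0.16 (R 4.3.3) the counts were filtered with filterByExpr by tissue, scaled by TMM and fitted by robust quasi-likelihood without a covariate beside tissue. The contrast was islet minus fat, Benjamini-Hochberg adjustment covered all 12152 genes tested, and the threshold was 0.05. Unless another tool is named, every adjusted p is from this test. SE is the absolute log2 difference over the square root of F. Ratios of single libraries had 0.5 CPM added. The 16 alternatives were upper-quartile and RLE factors, limma voom (limma 3.58.1), DESeq2 1.42.0, no filter, a minimum of 1 CPM throughout a tissue, the replicate block, mitochondrial genome and ribosomal RNA genes or the heat shock list left out, islet libraries 2 and 4 left out, and each library left out. Total counts of 4089980 to 9235591 per library set the precision for low genes. The labels do not say how many animals a library holds, and p-values measure the spread between these samples, which may be technical.

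The design text calls the tissues autologous and the labels give batches m2, m4 and m6, so the numbers were taken to pair the tissues by animal. Across genes, deviations from the tissue mean correlated at 0.0460, 0.0630 and -0.00759 for the same numbers 2, 4 and 6 and at -0.142 to 0.103 for others. The 32 genes, their roles, the other ER, heat shock and marker lists, the motifs and the alternatives were chosen with earlier results of these data known. All 32 genes are reported, and of each other ER list and the heat shock list the 2 called genes with the smallest adjusted p per direction. Promoter windows are RefSeq's, on GRCm38.p6. A stretch of bases shortly after the RefSeq start was found on the same strand in GENCODE M21 transcripts for 25 of 29 windows of these genes. It was found on the other strand for 0. This checks the strand of the windows and not the exact start site. Mesd, Ufd1 and Ero1l were matched through synonyms, and Srp54a lies on 2 rows.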

Additional observations from a re-analysis of the deposited data

How the results depend on the processing

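The 10 genes that rose kept a positive difference in all 16 alternatives, which the lack of overlap between the tissues made likely beforehand. Hyou1 passed in all 16. DESeq2 called 1 of the 32 genes lower and 8 other ER genes lower, and the fit with no filter 1 of the 32 lower. Islet library 6 alone gave 5 of the 32 lower, 34 other ER genes higher and 22 lower, and 2064 and 2916 of all genes. With 1 library left out, the set gave 1 to 13 higher and 0 to 1 lower, other ER genes 4 to 26 higher and 2 to 6 lower, and all genes 466 to 1649 higher and 593 to 2022 lower; a fit on 5 libraries has fewer residual degrees of freedom. Under the replicate block 7 of the 32 were higher and 0 lower (other ER genes 13 and 4, all genes 884 and 1103); Hsp90b1, Pdia3 and Pdia6 of the 10, and Traf2 of the other named genes, missed the threshold there, and the block changed no other call among the named genes. Differences near 0 changed sign: Dnajc3 to -0.0155 with RLE factors, -0.0155 in DESeq2, -0.0186 with no filter and -0.00279 without mitochondrial genome and ribosomal RNA genes; Dnajb9 to -0.0179 in limma voom and -0.00474 with the replicate block; Ero1l to 0.00777 with the 1 CPM filter. Islet library 6 alone turned Eif2ak3 (-1.20), Dnajb9 (-0.95), Dnajc3 (-0.10), Sdf2l1 (-0.31) and Derl1 (-0.36). With 1 library left out, differences ran from -0.20 to 0.46 for Ern1, -0.28 to 0.43 for Dnajb9, -0.0716 to 0.10 for Dnajc3, -0.55 to 0.21 for Ero1l, -0.18 to 0.47 for Derl2 and -0.55 to 0.36 for Sec61b. The cause of these changes was not tested. The median over all genes was 0.0061 in the reported fit, -0.30 with no filter, -0.20 with islet library 6 alone and within 0.1 of 0 otherwise. Low counts limit Trib3 and Asns.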
